A study of Mus musculus with 12 samples.

Results

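The miR-130 and miR-301 family was examined in murine pulmonary endothelial cells stimulated through NOD1 or NOD2. Its members on the array are mmu-miR-130a, mmu-miR-130b, mmu-miR-301a and mmu-miR-301b, written here without the species prefix. They were chosen by name, as the mouse assays made up of a member and its six-digit assay number (000454, 000456, 000528 and 002600), and are 4 of the 375 miRNA assays of the array. The cells came from the lungs of male wild type C57BL/6N mice aged 6 to 10 weeks, the tissue of 3 mice was pooled for each isolation, and the methods describe separate isolations behind the arrays of a group. The 3 groups were unstimulated control cells, cells given the NOD1 ligand Tri-DAP (TD in the labels) and cells given the NOD2 ligand MDP, each ligand at 10 μg/mL for 6 hours, with 4 TaqMan low-density arrays (TLDAs) per group. The question of the design is which endothelial miRNAs respond to either ligand. No knockout or transgenic line is among the samples.

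MiRNAs are short RNAs that are cut from hairpin transcripts and guide Argonaute proteins to messenger RNAs, mainly by pairing through the seed near their 5′ end. Members of a seed family can therefore bind overlapping sets of transcripts. The miR-130 and miR-301 family is known from work on pulmonary hypertension, where it represses PPARγ in vascular cells and lies upstream of miR-204 in smooth muscle cells and of miR-424 and miR-503 in endothelial cells. MiR-130a is also known from angiogenesis, as a repressor of antiangiogenic homeobox genes. NOD1 and NOD2 are cytosolic receptors for fragments of bacterial peptidoglycan that activate NF-κB.

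The mature sequences of 3 members were found in the RefSeq table for GRCm38.p6 and are shown because the shared seed defines the family. Capitals mark the seed, bases 2 to 8 from the 5′ end.
miR-130a-3p: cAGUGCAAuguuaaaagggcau
miR-130b-3p: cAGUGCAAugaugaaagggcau
miR-301a-3p: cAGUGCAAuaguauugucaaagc

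The assay names carry no arm, and the 3p arm, the main product of these hairpins, was taken. Within the 22 positions they share, miR-130a-3p and miR-130b-3p had the same base at 20. Counted from the 5′ end with miR-130a-3p first, they differed by U11A and A13G. MiR-301a-3p matched miR-130a-3p at 12 of 22 positions and miR-130b-3p at 11, so outside the seed the 2 miR-130 sequences were much closer to each other than to miR-301a. The files hold no primer sequences, and how far an assay also detects a near-identical member cannot be told from them. Among the mouse mature sequences of the table, 7 carried this seed, and no other assay of the array was matched to one of the remaining 4.

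The mature miR-130a-3p lies at chr2:84741116-84741137 on the minus strand, with Gm19426 as the nearest annotated gene, 986 bases from the hairpin. The mature miR-301a-3p lies at chr11:87113054-87113076 on the plus strand, inside the span of Ska2, which is read from the same strand. The hairpins of miR-301b (chr16:17124400-17124496) and miR-130b (chr16:17124061-17124142) are neighbours on the minus strand, 257 bases apart, within the span of 2610318N02Rik. Of the 4 members, these were the only ones whose hairpins lay together.

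A TLDA well reports the cycle at which the fluorescence of its TaqMan assay crosses a threshold (Ct), and a lower Ct stands for more RNA. A Ct of 40, the last cycle, means that no threshold was reached. Between 231 and 254 miRNAs were measured per array. All 4 members were measured on 12 of 12 arrays. The endothelial miR-126-3p had a Ct from 18.6 to 20.6. Markers of other cell types were measured as well. Of the leukocyte miRNAs, miR-223 and miR-150 were measured on 12 arrays, miR-142-3p on 9 and miR-142-5p on 2. Of the epithelial miRNAs, miR-429 was measured on 12 arrays, miR-200b and miR-200c on 11, miR-200a and miR-141 on 10 and miR-205 on 1, and the erythroid miR-451 was measured on 3. The summed level of the mural miRNAs miR-143 and miR-145, relative to the mean of the 174 miRNAs with a value on all arrays, ran from 0.486 to 45.2 on the control arrays, from 0.750 to 40.4 after Tri-DAP and from 0.575 to 38.9 after MDP, with the highest value of the groups on arrays 13, 14 and 15. Summed on the same scale, the 6 epithelial miRNAs ran from 0.128 to 8.97, from 0.251 to 3.54 and from 0.520 to 3.91 in these groups. The 4 leukocyte miRNAs ran from 0.498 to 0.991, from 0.369 to 0.842 and from 0.512 to 1.07. The part of cells other than endothelial cells in the members' values was not tested. In such bulk RNA, fewer cells of a type and less RNA per cell cannot be told apart.

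In every group miR-130a crossed the threshold first and miR-130b last. The mean Ct over the 12 arrays was 26.7 ± 0.62 (SD) for miR-130a, 27.6 ± 0.62 for miR-301b, 27.9 ± 0.60 for miR-301a and 29.3 ± 0.67 for miR-130b. Among these 174 miRNAs, 40 had an earlier mean Ct than miR-130a, 56 than miR-301b, 66 than miR-301a and 96 than miR-130b. The family therefore lay in the early to middle range of these 174 miRNAs, with miR-130a the nearest to the abundant end. MiRNAs without a value on some array were not ranked.

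The order held on most single arrays. MiR-130a came before miR-301b on 11 of 12 arrays, the exception being control array 7, and before miR-301a on 12 of 12. MiR-130b came after each of the other members on 12 of 12, on average 1.68 ± 0.29 cycles (SD, n = 12) after miR-301b, its neighbour in the genome. Over all arrays miR-301b and miR-301a were not separated beyond their spread, since miR-301b came first on 8 of 12 and the mean gap was 0.28 ± 0.36 cycles. By group this gap was 0.56 ± 0.40 cycles (SD, n = 4) in the control, 0.08 ± 0.20 after Tri-DAP and 0.195 ± 0.35 after MDP. MiR-301b came first on every control array, and the difference between groups was not tested. Different assays differ in efficiency, so this is an order of cycles, and the copies per cell were not measured.

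The following values are log2 expression relative to U6, the small nuclear RNA measured in 4 wells of each array. MiR-130a was at -7.32, -7.45, -7.06 and -6.80 on control arrays 4, 7, 10 and 13. After Tri-DAP it was at -7.18, -6.32, -7.42 and -8.04 on arrays 5, 8, 11 and 14, and after MDP at -6.51, -7.36, -7.58 and -6.49 on arrays 6, 9, 12 and 15. The 3 groups overlapped, and the control arrays lay inside the wider range of the Tri-DAP arrays.

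MiR-301a was at -8.36, -8.24, -8.55 and -8.12 on the control arrays in the same order. It was at -8.26, -7.28, -8.55 and -8.89 after Tri-DAP and at -8.05, -8.80, -8.65 and -7.75 after MDP. The control arrays were again the closest together, with the highest and the lowest value of all both after Tri-DAP, on arrays 8 and 14.

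MiR-301b was at -8.01, -7.15, -7.92 and -7.95 on the control arrays, at -7.97, -7.40, -8.34 and -8.95 after Tri-DAP and at -7.35, -8.65, -8.70 and -7.77 after MDP. Control array 7 stood above the other control arrays, which lay close together. The stimulated arrays spread over a range that took in all control arrays but array 7.

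MiR-130b was at -9.45, -8.95, -9.51 and -10.02 on the control arrays, at -9.84, -8.98, -9.78 and -10.70 after Tri-DAP and at -9.57, -10.28, -9.86 and -9.40 after MDP. Control array 7 was the highest of the control arrays here too, and the groups overlapped.

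**Figure D1:**
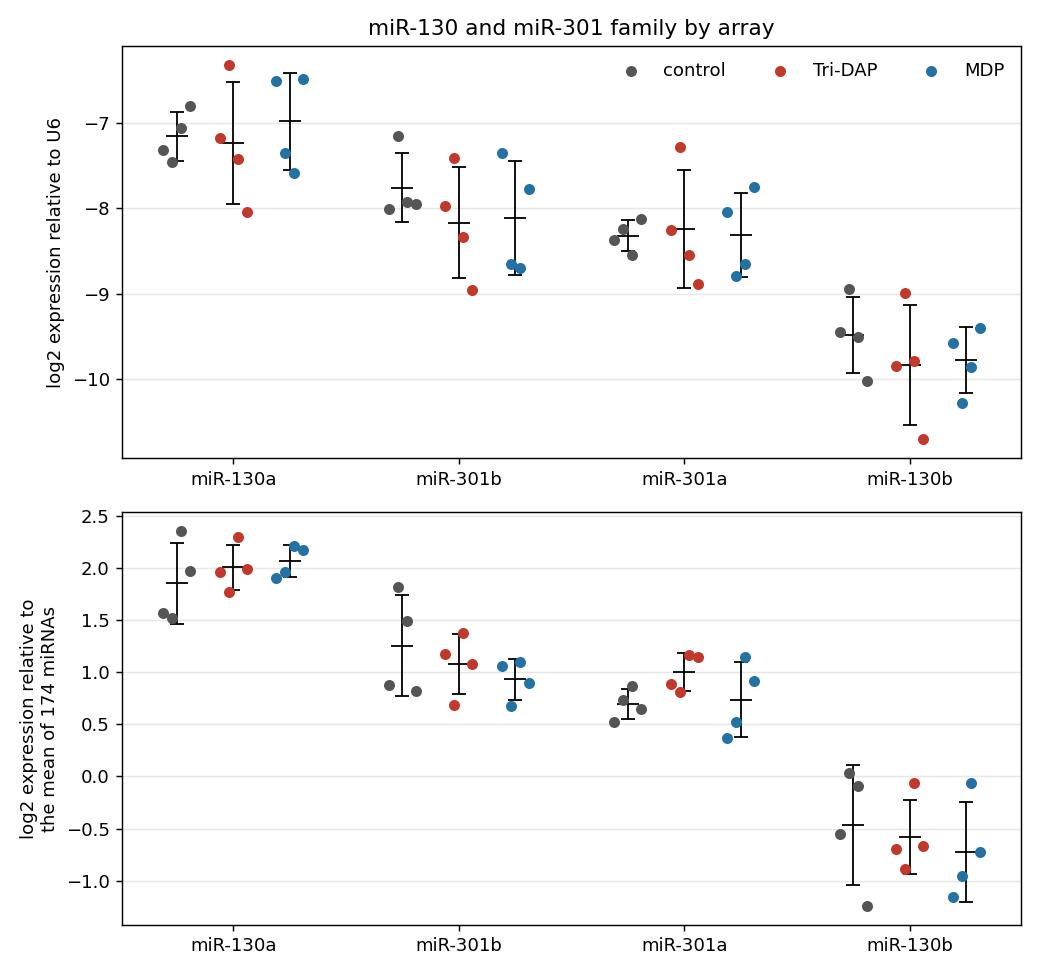
Values of the 4 family members on each array, as log2 expression relative to U6 (upper panel) and relative to the mean of the 174 miRNAs with a value on every array (lower panel), by group. Points are arrays, the bars show mean ± SD (n = 4), and the groups overlap for all 4 members on both scales, with less spread in the lower panel.

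Against the control, no member passed the test after either ligand. All 4 were tested, and 0 were called at an unadjusted p under 0.05 in limma after Tri-DAP, where 1.69% of the 237 miRNAs tested were called, 0 higher and 4 lower (1 higher and 4 lower with the mean of the miRNAs as the reference). After MDP 0 of 4 were called, against 1.23% of 244. The stimulated and control arrays overlapped for every member in each comparison. How many of all miRNAs had groups that overlapped was not counted. The share of all miRNAs called was so low that 0 of 4 does not set the family apart from the array.

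After Tri-DAP the log2 fold change of miR-130a was -0.08 (SE 0.54, 95% interval -1.24 to 1.09), that of miR-301a 0.07 (SE 0.52, -1.05 to 1.20), that of miR-301b -0.41 (SE 0.55, -1.60 to 0.79) and that of miR-130b -0.35 (SE 0.53, -1.49 to 0.80). Two-sided exact permutation tests over the arrays gave p from 0.34 to 0.89, where 4 arrays against 4 cannot give less than 0.029. The Benjamini-Hochberg adjusted p in limma was 0.998 for each member. The median of the members was -0.21, beside -0.24 for all miRNAs tested, 75.1% of which had a mean below the control. With the mean of the miRNAs as the reference the median of all moved to 0.01.

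After MDP miR-130a had a log2 fold change of 0.18 (SE 0.53, 95% interval -0.98 to 1.33). It was 0.01 (SE 0.52, -1.11 to 1.13) for miR-301a, -0.36 (SE 0.55, -1.54 to 0.83) for miR-301b and -0.30 (SE 0.53, -1.43 to 0.84) for miR-130b. Exact permutation tests gave p from 0.37 to 1.0. Both comparisons use the same control arrays, so the alike values of miR-301b, and of miR-130b, in them are not separate measurements. Leaving out control array 7 brought miR-301b to -0.20 after Tri-DAP and -0.15 after MDP, and miR-130b to -0.17 and -0.12. Leaving out Tri-DAP array 14 brought them to -0.15 and -0.06 after Tri-DAP.

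MDP was also set against Tri-DAP. The log2 fold change was 0.26 (95% interval -0.91 to 1.42) for miR-130a, -0.07 (-1.19 to 1.06) for miR-301a, 0.05 (-1.14 to 1.24) for miR-301b and 0.05 (-1.09 to 1.20) for miR-130b. Of the 4 members 0 were called in limma, beside 2.90% of the 241 miRNAs tested, and the exact permutation p ran from 0.63 to 0.97. The intervals of all 3 comparisons reach past a 2-fold change (1 on the log2 scale) in at least 1 direction for each member. On this scale the arrays could not show whether a change of that size in such a direction was present. A 2-fold rise lay outside the intervals of miR-301b and miR-130b against the control after either ligand. A 2-fold fall lay outside those of miR-130a after MDP and between the ligands.

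The spread behind these intervals differed with the reference. The mean Ct of the 4 U6 wells was latest on Tri-DAP array 8, at 21.6, and earliest on Tri-DAP array 14, at 18.3. On array 8 the Ct of miR-130a was 27.9, that of miR-301a 28.9, that of miR-301b 29.0 and that of miR-130b 30.6, the latest of the 12 arrays for each. Relative to U6, the same array gave the highest value of miR-130a and of miR-301a. The SD within groups was 0.55 for miR-130a, 0.50 for miR-301a, 0.59 for miR-301b and 0.53 for miR-130b relative to U6. Relative to the mean of the 174 miRNAs, it was 0.27, 0.25, 0.35 and 0.48.

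With this mean as the reference, the members were among the steadier miRNAs of the array. Of the 174, 2 had a smaller SD within groups than miR-301a, 6 than miR-130a, 18 than miR-301b and 44 than miR-130b, and the median was 0.69. This is a description with no test, and the part of the members' early to middle Ct in it was not tested.

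**Figure D2:**
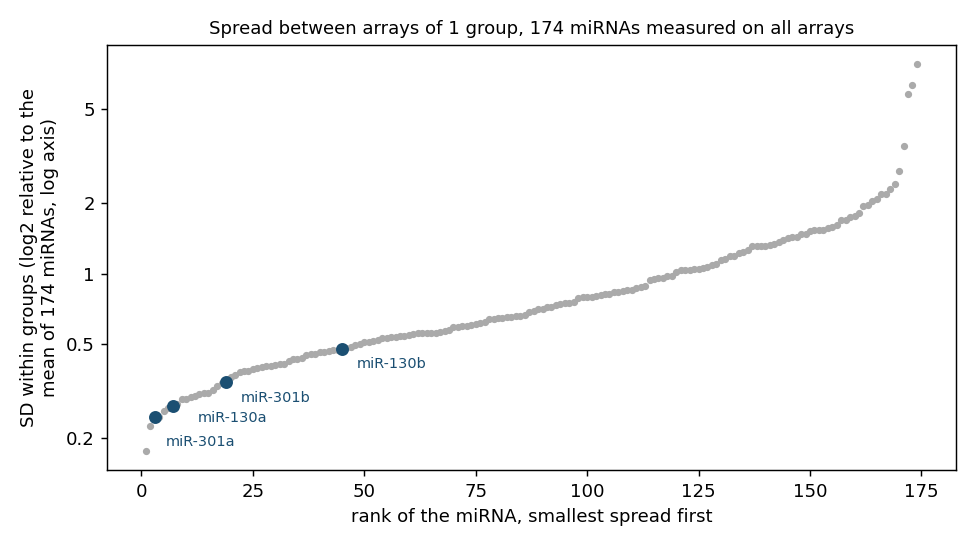
SD within groups, in log2 units relative to the mean of 174 miRNAs and on a log axis, for each of the 174 miRNAs, ranked from the smallest. Grey points are single miRNAs, and the labelled members lie between 0.25 and 0.48, below the median of 0.69.

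On this scale miR-301a was at 0.52, 0.74, 0.87 and 0.65 on control arrays 4, 7, 10 and 13 and at 0.89, 0.81, 1.17 and 1.14 on Tri-DAP arrays 5, 8, 11 and 14. After MDP it was at 0.37, 0.53, 1.15 and 0.92 on arrays 6, 9, 12 and 15. The Tri-DAP arrays lay highest as a group, with an overlap between the highest control array and the lowest Tri-DAP array. The log2 difference from the control was 0.31 after Tri-DAP (two-sided exact permutation test, p = 0.057) and 0.04 after MDP (exact p = 0.83). In limma with this reference the Tri-DAP difference had a 95% interval of -0.28 to 0.89 and an adjusted p of 0.99.

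MiR-130a was at 1.57, 1.52, 2.36 and 1.98 on the control arrays, at 1.97, 1.77, 2.3 and 2.0 after Tri-DAP and at 1.91, 1.97, 2.22 and 2.18 after MDP. The log2 difference from the control was 0.15 after Tri-DAP and 0.21 after MDP, within the spread of the control arrays. The sign of the Tri-DAP difference was the opposite of that relative to U6.

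MiR-301b was at 0.88, 1.82, 1.5 and 0.82 on the control arrays, at 1.17, 0.69, 1.38 and 1.09 after Tri-DAP and at 1.07, 0.67, 1.10 and 0.90 after MDP. Here the control arrays were the most spread out, since arrays 7 and 10 lay above all MDP arrays and arrays 4 and 13 did not. The log2 difference from the control was -0.17 after Tri-DAP and -0.32 after MDP, with exact permutation p of 0.57 and 0.34.

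MiR-130b was at -0.56, 0.03, -0.09 and -1.24 on the control arrays, at -0.69, -0.89, -0.06 and -0.67 after Tri-DAP and at -1.16, -0.96, -0.06 and -0.73 after MDP. The highest and the lowest of the 12 values were both on control arrays. The log2 difference from the control was -0.12 after Tri-DAP and -0.26 after MDP, with exact permutation p of 0.71 and 0.51.

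The labels number the arrays so that 1 array of each group falls in each of the runs 4 to 6, 7 to 9, 10 to 12 and 13 to 15. Neither the labels nor the methods say that such a run shares an isolation. Relative to the mean of the miRNAs, arrays 10 to 12 held the highest mean of all 4 members, at 2.29 ± 0.07 (SD, n = 3) for miR-130a, 1.06 ± 0.17 for miR-301a, 1.33 ± 0.20 for miR-301b and -0.07 ± 0.01 for miR-130b. For miR-130b the 3 arrays of this run, 1 from each group, lay between -0.09 and -0.06. Of the remaining 9 arrays, control array 7 alone lay above this range, and the others lay below it.

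Within these runs miR-301a was higher after Tri-DAP than in the control in 4 of 4, by 0.36, 0.07, 0.30 and 0.49 on the log2 scale. It was lower after MDP than after Tri-DAP in 4 of 4, by -0.52, -0.29, -0.02 and -0.23. Both counts use the same 4 Tri-DAP arrays. MiR-301b was likewise lower after MDP than after Tri-DAP in 4 of 4, by -0.11, -0.02, -0.28 and -0.19, but higher in 2 of 4 relative to U6. MiR-130b was lower after Tri-DAP than in the control in 4 of 4 relative to U6, but higher in 2 of 4 relative to the mean. How many of all miRNAs had the same sign in every run was not counted. With the runs as sets in the limma fit and the mean as the reference, a setting chosen after seeing the data, the Tri-DAP difference of miR-301a had a 95% interval of -0.06 to 0.67 and an unadjusted limma p of 0.087. Under that setting 0 of 4 members were called in any comparison. Of all miRNAs tested with it, 13 of 236 were called after Tri-DAP, 12 of 243 after MDP and 12 of 238 between the ligands. The 95% interval of every member lay between -1 and 1 under that setting. The limma p of 0.087 was the smallest of any member over the alternatives run. Relative to U6 miR-301a was higher after Tri-DAP in 2 of 4 runs.

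**Figure D3:**
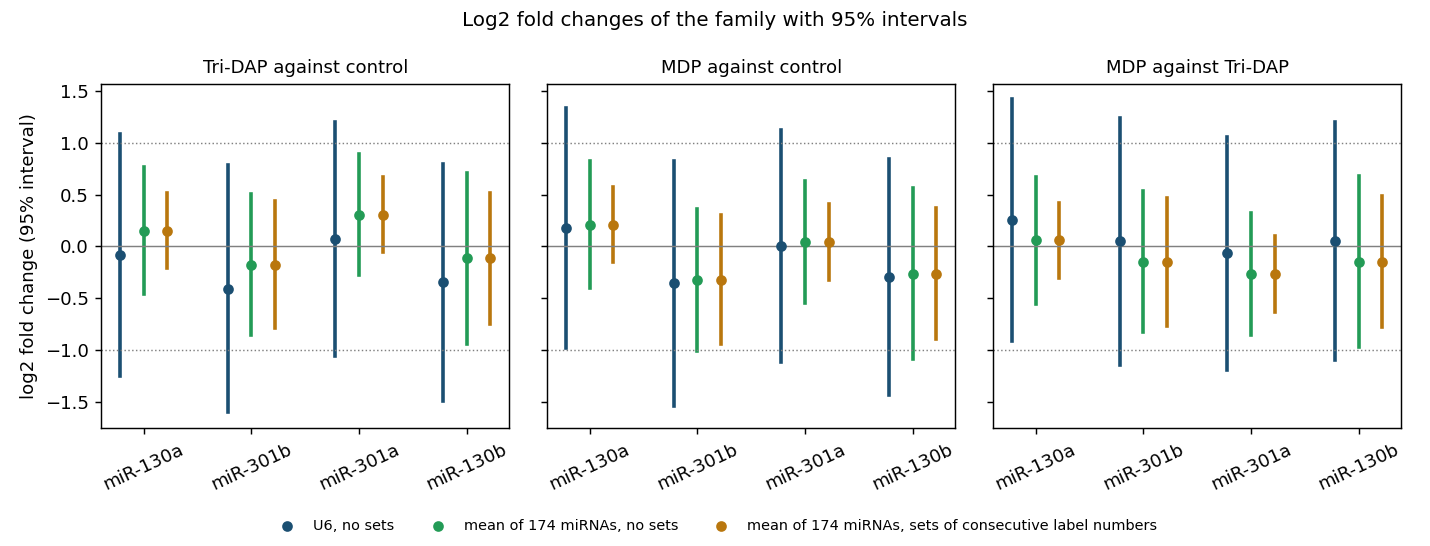
Log2 fold changes of the 4 members (points) with 95% intervals (lines) in the 3 comparisons, relative to U6, relative to the mean of 174 miRNAs, and relative to that mean with runs of consecutive label numbers as sets. Dotted lines mark 2-fold changes, every interval includes 0, and the intervals of the third setting all lie inside the dotted lines.

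The clustered members miR-301b and miR-130b varied together over the arrays. Relative to the mean of the miRNAs and over the 12 arrays, Pearson's r was 0.77 and Spearman's rho 0.77 (permutation p = 0.0029 and 0.0050, and 0.017 and 0.030 after Benjamini-Hochberg adjustment over the 6 pairs of members). The permutation tests of correlations treat the 12 arrays as independent. The authors describe 4 independent cell isolations, so arrays of different groups would share isolations and these p-values would be too small. Means of the runs of consecutive label numbers were not removed. The 3 arrays with the most miR-301b, control arrays 7 and 10 and Tri-DAP array 11, were among the 4 with the most miR-130b. Of the 15051 pairs of miRNAs measured on all arrays, 96.9% had a lower r. With the group means removed, r was 0.75. Without the 2 arrays farthest from the median of miR-301b, which were control arrays 7 and 10, it was 0.63 (permutation p = 0.054, and 0.11 after adjustment). The relation thus did not pass the threshold on the remaining 10 arrays, which are fewer and span a narrower range. The adjusted permutation p was 0.044 without control array 7 alone and 0.046 without control array 10 alone. Leaving out any 1 array gave 0.71 to 0.83.

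The remaining pairs gave lower values. R was 0.58 for miR-301a and miR-130b and 0.56 for miR-130a and miR-301a, each with a permutation p of 0.12 after adjustment, with rho of 0.52 and 0.68. It was 0.30 for miR-301a and miR-301b, 0.21 for miR-130a and miR-130b and 0.05 for miR-130a and miR-301b (adjusted permutation p of 0.52, 0.62 and 0.87, with rho of 0.46, 0.17 and 0.27). The near-identical miR-130a and miR-130b thus had one of the lower values, and differences between pairs were not tested. Without control array 7, r was 0.59 for miR-130a and miR-130b, 0.68 for miR-130a and miR-301b and 0.71 for the clustered pair. Relative to U6 all 6 values of r lay between 0.57 and 0.88, where the median of all pairs of miRNAs was 0.46 and every pair shares the U6 value of its array.

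**Figure D4:**
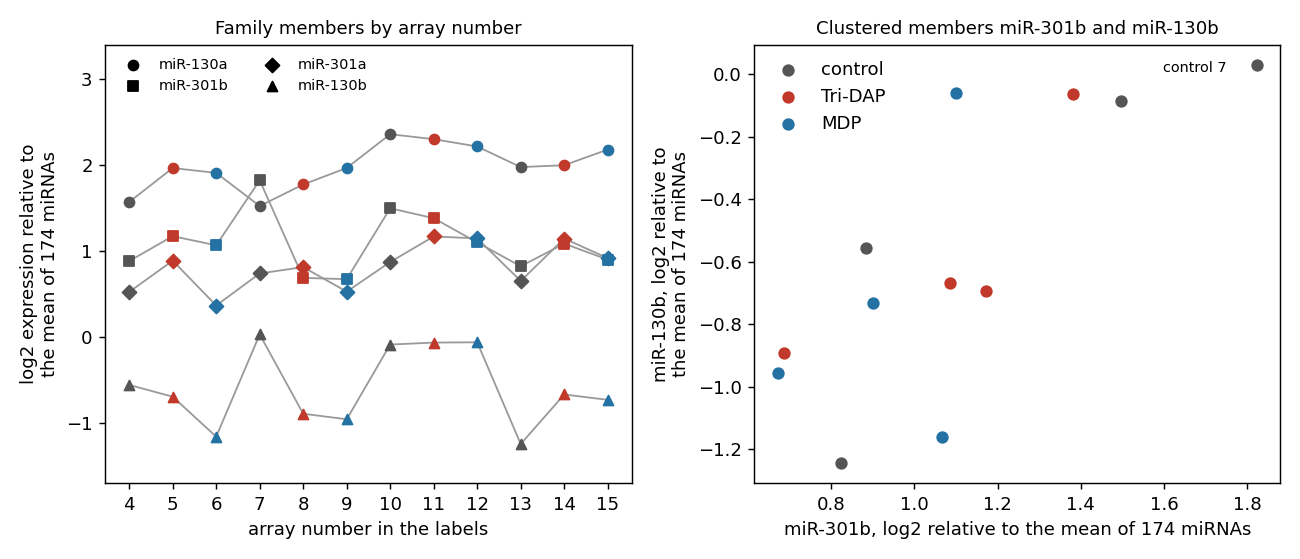
Left, the 4 members on the 12 arrays in the order of the label numbers, and right, miR-130b against miR-301b, all as log2 expression relative to the mean of 174 miRNAs. Colours give the group in both panels and symbols the member, and control array 7 is the highest for both clustered members, where miR-130a is at its lowest.

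For each member the 2 miRNAs outside the family with the highest r over the 12 arrays were taken from the 170 others measured on all arrays. For miR-130a they were miR-92a (r = 0.87) and miR-20a (0.80), 2 miRNAs that can come from 1 primary transcript shared by them and not by miR-130a. Relative to U6 the value for miR-20a was 0.64. For miR-301a they were miR-532-3p (0.84) and miR-351 (0.77), the latter falling to 0.26 relative to U6. For miR-301b they were miR-186 (0.83) and miR-19a (0.81), and for miR-130b miR-30c (0.73) and again miR-19a (0.69). These values are descriptions chosen as the highest, over arrays that share their RNA input, and carry no test.

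MiRNAs whose seed shares a run of 6 bases with that of the family were examined next, since their target sites can overlap. On the array these were miR-148a, miR-148b and miR-152, shifted by a base to one side, and miR-19a and miR-19b, shifted to the other. They are shown with the seed in capitals to set the shift beside the family seed.
miR-148a-3p: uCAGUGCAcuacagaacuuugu
miR-148b-3p: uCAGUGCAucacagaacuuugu
miR-152-3p: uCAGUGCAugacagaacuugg
miR-19a-3p: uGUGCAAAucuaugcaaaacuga
miR-19b-3p: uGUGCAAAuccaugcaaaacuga

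Of these 5, 0 were called in any comparison. Of all miRNAs tested, 1.69% were called after Tri-DAP, 1.23% after MDP and 2.90% between the ligands. Relative to U6, the log2 fold change after Tri-DAP was -0.19 for miR-148a, -0.63 for miR-148b, 0.03 for miR-152, -0.33 for miR-19a and -0.54 for miR-19b. After MDP the values lay between -0.22 and 0.09. MiR-19b, with a mean Ct of 22.2 ± 0.72 (SD, n = 4) on the control arrays, crossed the threshold earlier than any family member, and miR-148b, at 31.5 ± 0.66, later.

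A list of 15 further miRNAs linked to pulmonary vascular disease was set beside the family, and 14 of them were on the array. After Tri-DAP 1 of 14 was called, beside 1.69% of the 237 miRNAs tested, and the 1 called was lower. This was miR-124, a miRNA best known from neurons, at a mean of -11.89 against -8.89 in the control, a log2 fold change of -3.0 (SE 1.26, unadjusted p in limma 0.033, adjusted p 0.998). It stayed called in 15 of 23 alternatives. It lost the call without control array 10 (-2.24), and likewise on leaving out either array 5 (-2.28) or array 11 (-2.08) of the Tri-DAP group. The call was also lost with each of the other references, at -2.76 with the mean of the miRNAs, -2.94 with U6 and snoRNA202 and -2.88 from raw Ct (unadjusted limma p of 0.075, 0.054 and 0.059). The same held for the mean of the miRNAs together with runs of label numbers as sets (unadjusted limma p of 0.092) and for the methods' t-test. Under MDP and between the ligands 0 of 14 were called, beside 1.23% and 2.90% of all miRNAs tested. The median log2 fold change of the list was -0.19 after Tri-DAP and -0.09 after MDP, beside -0.24 and -0.02 for all miRNAs tested.

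The miRNAs described downstream of the family were measured on all arrays and not called. MiR-322, the mouse counterpart of human miR-424, had a log2 fold change of -0.34 (SE 0.74) after Tri-DAP and -0.12 (SE 0.74) after MDP. MiR-503, from the same cluster, was at -0.34 (SE 0.94) and -0.80 (SE 0.94). Both lay at a lower Ct on arrays 10 to 15 than on arrays 4 to 9, with miR-322 on control arrays 4, 7, 10 and 13 at a Ct of 29.6, 30.5, 27.6 and 26.9. MiR-204 was at 0.33 (SE 1.22) and 0.71 (SE 1.22), and its control arrays ran the other way, at a Ct of 30.4, 31.0, 32.6 and 34.2. The SE of these 3 was wider than that of any family member.

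**Figure D5:**
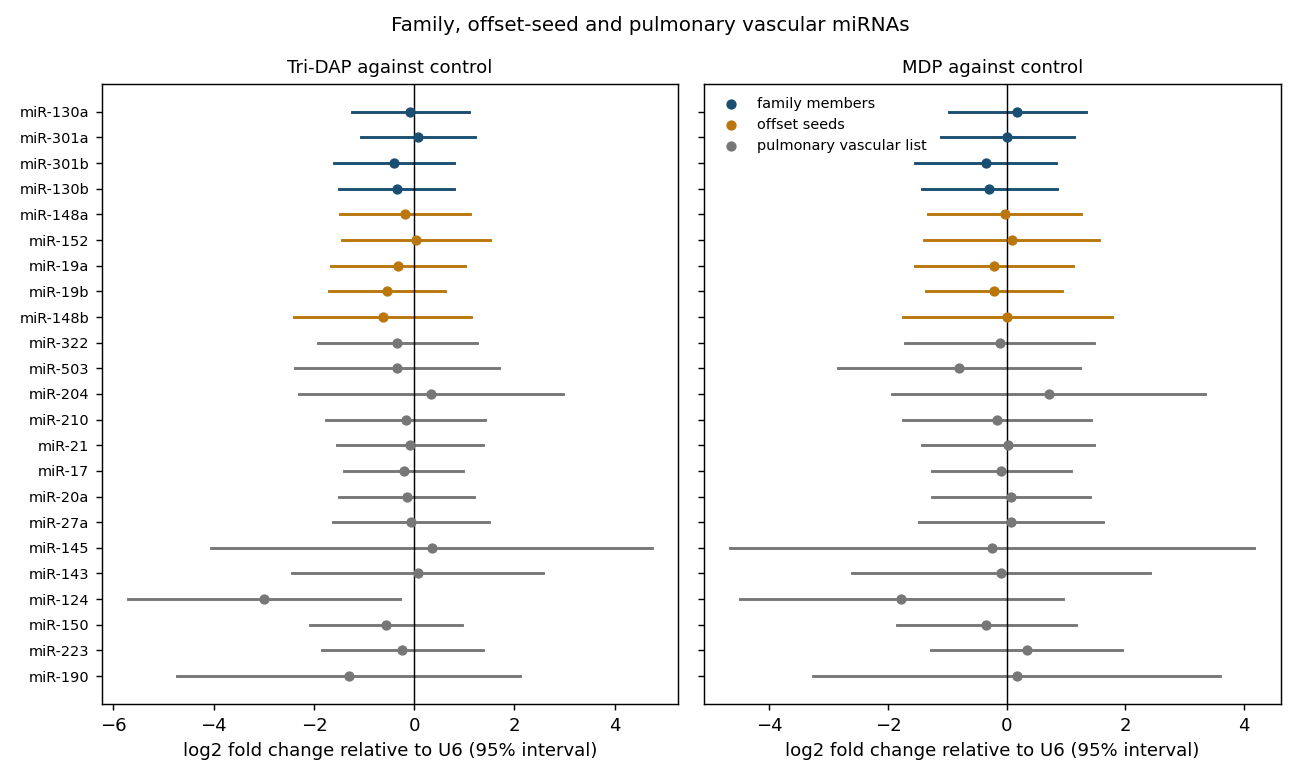
Log2 fold changes relative to U6 (points) with 95% intervals (lines) for the family, the miRNAs with an offset seed and the pulmonary vascular list, after Tri-DAP (left) and MDP (right). All intervals include 0 except that of miR-124 after Tri-DAP, and the family has some of the narrowest intervals.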

How the data were processed

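RNA of 12 TLDAs, 4 per group, was analysed, with groups from the labels. The authors ran 40 cycles and deposited Ct values, which are cycles on a log2 scale, and Ct values normalized to the mean of 4 U6 wells of the same array, which are also log2 and held to within 5.33e-15 cycles when checked. Deposited columns of fold changes between groups hold the authors' own comparisons and were not used, nor were 12 unnamed columns of the Ct table.

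The sign of the normalized values was reversed to give log2 expression, and wells at Ct 40 were set missing. A miRNA was tested with at least 2 measured values in each group compared, in one fit of limma 3.58.1 (R 4.3.3) over all 12 arrays without a block. A miRNA was called where its p was under 0.05 before adjustment, with Benjamini-Hochberg adjustment over all miRNAs tested beside it. Of the 4, 3 and 7 miRNAs called after Tri-DAP, after MDP and between the ligands, 0 passed the adjusted limma p. Exact permutation tests of single members and permutation tests of correlations with 100000 resamples used Python 3.11.15 and scipy 1.17.1. The fit was tested on simulated data. The number of arrays limits the precision. Where samples share a culture, p-values measure only the spread between these samples.

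Alternatives covered the reference, wells at Ct 40 kept in, wells above Ct 35 left out, the measured values required, groups in the fit, the variance model, the methods' t-test, consecutive label numbers as sets and leaving out arrays. The members, the lists and the rule for named miRNAs (all members, all miRNAs with an offset seed, miR-322, miR-503, miR-204 and any called miRNA of the pulmonary vascular list, and the 2 miRNAs most like each member) were chosen with earlier results of these data known. Sequences and positions were taken from RefSeq on GRCm38.p6.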

Additional observations from a re-analysis of the deposited data

Results flagged for a closer look

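On control array 7 the log2 expression of miR-301b relative to U6 was -7.15, whereas the other control arrays lay between -8.01 and -7.92. The gap to the nearest of them was 0.905 of the range of the group. Across the 36 sets of 4 arrays examined (4 members, 3 groups and 3 scales), this was the 1 that stood apart in this way, and chance at 1 in 20 would give 1.8. The Ct of miR-301b on that array, 27.20, was close to the 27.18 of control array 10.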

How the results depend on the processing

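Under the 23 alternatives of each of the 12 fold changes of members, 0 of 276 values were called, the smallest unadjusted limma p was 0.087 and the largest absolute log2 fold change 0.660, while 31 changed sign. The mean of the miRNAs as the reference, with or without sets of consecutive label numbers, turned miR-130a after Tri-DAP to 0.15, and miR-130b and miR-301b between the ligands (MDP against Tri-DAP) to -0.15 each. U6 with snoRNA202 turned these last to -0.0087 and -0.0092, and raw Ct to -0.079 and -0.080, with miR-130a at 0.034 after Tri-DAP and miR-301a at -0.0073 after MDP. Leaving out each array gave -0.39 to 0.19 for miR-130a and -0.25 to 0.29 for miR-301a after Tri-DAP (without Tri-DAP arrays 8 and 14), and -0.18 to 0.17 for miR-301a after MDP. Between the ligands the ranges were -0.010 to 0.56 (miR-130a), -0.24 to 0.33 (miR-130b), -0.28 to 0.25 (miR-301a) and -0.21 to 0.30 (miR-301b), again without Tri-DAP arrays 14 and 8.

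The number of miRNAs called in limma after Tri-DAP, 4, became 8 with undetermined wells at Ct 40, 7 from raw Ct, 9 with sets and 13 with sets and the mean reference. After MDP, 3 became 5 with the mean reference, 5 with snoRNA202, 5 with only the 2 groups compared, 6 with sets, 12 with sets and the mean reference, and 1 with at least 3 measured values or with the methods' t-test. Between the ligands, 7 became 4 with a Ct limit of 35, 3 with at least 3 measured values, 4 with the methods' t-test and 12 with sets and the mean reference. Leaving out each array gave 1 to 12 (without Tri-DAP array 5 and array 8), 1 to 7 (without MDP array 15 and Tri-DAP array 8) and 2 to 17 (without Tri-DAP array 14 and array 8).

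Of the co-variations, U6 as the reference brought r past the threshold for miR-130a with miR-301a (0.88) and miR-301b (0.70) and for miR-301a with miR-301b (0.76) and miR-130b (0.71). Removing group means did so for miR-301a with miR-130b (0.72). Without the 2 arrays farthest from the median, r was 0.74 for miR-130a with miR-301b, 0.83 for miR-130a with miR-130b and 0.63 for miR-301b with miR-130b. Leaving out each array gave -0.14 to 0.68 for miR-130a with miR-301b, where control array 10 and control array 7 set the ends, and 0.47 to 0.69 for miR-301a with miR-130b.

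The authors describe 4 independent cell isolations behind the arrays, so arrays of different groups would share isolations. Which arrays do is not stated in the labels or methods, and the groups share no label numbers. The fits with sets above, which take runs of consecutive numbers for a replicate block, rest on a pairing inferred from those numbers. The main fit and the exact permutation tests use no pairing. As a hint only, the 12 pairs of arrays within a run of consecutive numbers had a median correlation of deviations of 0.30 (lowest -0.12), beside -0.11 for the 36 other pairs. Causes were not tested. The number of arrays and the spread of U6 limit what can be seen.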
